A study of Mus musculus with 8 samples.

Results

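The 10 genes described here are 5 Fc receptor genes, Fcgr1, Fcgr2b, Fcgr3, Fcgr4 and Fcer1g, and 5 macrophage surface genes, Cd68, Cd14, Adgre1, Mrc1 and Ptprc. They were taken by symbol from a table of 31894 genes, and all 10 passed the filter on low counts. Their mRNA was compared between E-cadHI and E-cadLO tumor cells that were sorted from the breast cancer brain metastasis (BCBM) of the same mouse, in 4 mice numbered 57, 58, 67 and 70. All 8 libraries came from wild type FVB hosts with BCBM grown from a PyMT E-cad-mCFP mammary tumor, in which the polyoma middle-T antigen drives the carcinoma and a cyan fluorescent protein is fused to E-cadherin. E-cadHI cells were sorted as high and E-cadLO cells as low for this protein. The tumor cells derive from BCBM organoids made after serial passage in the brain, so they stand for 1 lineage, and the study checked sort purity on the CFP positive cells only, since CFP negative cells were too few. No time point and no treatment separates the groups, and the hosts were adult.

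Fc receptors bind the constant part of antibodies and are carried mainly by myeloid cells. The activating receptors, the products of Fcgr1, Fcgr3 and Fcgr4, need the shared signalling chain encoded by Fcer1g to reach the surface and to signal, whereas the Fcgr2b product carries its own inhibitory motif. Cd68 and Mrc1 encode scavenger and mannose receptors, Cd14 a co-receptor for lipopolysaccharide, Adgre1 the F4/80 antigen of mouse macrophages, and Ptprc the CD45 phosphatase found on all nucleated blood cells. In the brain, microglia and border-associated macrophages carry most of them.

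Single reads of 65 bases gave 9108575 to 15780531 counts per library, and 3 counts corresponded to 0.202 to 0.349 CPM. Values below are normalized CPM, read counts divided by a library size that edgeR's trimmed mean of M values (TMM) adjusts for composition. At the RNA level the gene used for the sort, Cdh1, which encodes E-cadherin, lay between 93.5 and 132 CPM in E-cadHI and between 59.2 and 181.5 CPM in E-cadLO libraries. It was lower in the E-cadLO library of 3 of 4 mice and higher in that of mouse 58, so the library labelled E-cadLO of mouse 58 goes against its label for this transcript, and counts are also given without this mouse. The E-cadLO library of mouse 57 stood apart in fibroblast markers (Col1a1, Col1a2, Col3a1, Dcn, Lum and Pdgfra), which summed to 1035 CPM there, 15.2 to 43.8 CPM in the other E-cadLO and 6.32 to 19.3 CPM in the E-cadHI libraries. In sorted bulk RNA, fewer cells of a type and less RNA per cell cannot be told apart.

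Fcgr2b, Fcgr4, Fcgr3 and Fcer1g lie within 275749 bases of chromosome 1 (GRCm38, 170958617 to 171234365), and Fcgr1 lies alone on chromosome 3 (96282909 to 96293969, minus strand). The coding parts of Fcgr2b and Fcgr3 are close copies in the exons for the immunoglobulin-like domains. The following stretch is shown because it differs by only 1 base between an inhibitory and an activating receptor. It spans the junction of exons 3 and 4 on the minus strand, at chr1:170966634-170967992 in Fcgr2b and chr1:171054127-171057703 in Fcgr3 (GENCODE M21, GRCm38), intron included in the coordinates but not in the sequence. The capital marks the 1 mismatch between 2 identical runs of 129 and 113 bases. Every full-length read lying wholly inside the printed stretch spans this base. Reads identical in both genes therefore extend beyond the stretch or lie outside it.
Fcgr2b: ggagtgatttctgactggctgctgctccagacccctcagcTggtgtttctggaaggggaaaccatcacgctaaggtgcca
Fcgr3: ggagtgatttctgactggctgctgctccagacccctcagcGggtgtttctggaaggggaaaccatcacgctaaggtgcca

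Of all possible 65-base reads, 121 of 1733 from Fcgr3 (6.98%) also occur in Fcgr2b, and 344 of 5738 from Fcgr2b (6.0%) occur in some other gene. The gene that shared most with Fcgr2b was Fcgr3, with 121. Fcgr2b also overlaps the antisense gene Gm38204 in position, and reads shared with that gene are not counted apart here. No such read was shared for the other 8 members. How reads with several matches were counted is not given in the sources used here, so a small part of the Fcgr2b and Fcgr3 counts is uncertain.

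Of the 10 members, 8 had a promoter in the RefSeq table (GRCm38.p6, 250 bases before to 50 after the start). The hexamer GAGGAA, the core bound by the myeloid factor PU.1, or its reverse complement TTCCTC occurred in at least 1 promoter of 6 of these 8 genes. Counted over promoters it occurred in 7 of 10 (70.0%), against 28.3% of all 32851 promoters of this length. Fcgr1, Fcgr3, Fcgr4 and Mrc1 held it, in the same orientation, within the 80 bases before the start. These windows are shown with the hexamer in capitals because they belong to the 3 activating receptors and a macrophage lectin, at chr3:96293970-96294049 (minus), chr1:171059395-171059474 (minus), chr1:171018846-171018925 (plus) and chr2:14229334-14229413 (plus).
Fcgr1: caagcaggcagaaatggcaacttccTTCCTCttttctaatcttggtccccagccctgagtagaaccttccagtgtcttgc
Fcgr3: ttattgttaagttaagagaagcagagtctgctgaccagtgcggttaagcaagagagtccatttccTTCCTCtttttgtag
Fcgr4: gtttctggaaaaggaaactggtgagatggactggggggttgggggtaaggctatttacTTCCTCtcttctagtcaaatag
Mrc1: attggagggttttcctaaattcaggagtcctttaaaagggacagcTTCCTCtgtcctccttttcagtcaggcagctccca

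A match is a run of letters, not a site shown to be bound. The same 80-base window held no match in Cd68, Fcer1g, Fcgr2b and Ptprc, and the full promoter of Cd68 held 2. These windows cover 1 promoter per gene, whereas the count over genes used every promoter listed.

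Of the activating receptors, Fcgr1, which encodes the high-affinity receptor CD64, separated the populations most cleanly. In mice 57, 58, 67 and 70 it measured 1.88, 1.15, 4.83 and 7.11 CPM in E-cadHI and 30.8, 10.9, 39.7 and 19.6 CPM in E-cadLO cells. Every E-cadLO library lay above every E-cadHI library, and Fcgr1 was the one member for which this held; it held for 3.9% of the 13598 genes tested, and for 4.2% every E-cadLO library lay below every E-cadHI library, which held for no member. The means were 3.74 ± 2.75 and 25.2 ± 12.6 CPM (SD, n = 4). The within-mouse folds, with 0.5 CPM added to both values, were 13.1, 6.92, 7.53 and 2.64.

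In edgeR's quasi-likelihood test without a block, the log2 fold change of Fcgr1 was 2.76 with a standard error of 0.62 and a Benjamini-Hochberg adjusted p of 0.251 over all genes tested, so it was not called. With the mouse as a block in the same edgeR test it was 2.92 (SE 0.45) with an adjusted p of 0.0392, which is a call. Over the 15 alternatives the adjusted p ran from 7.01e-09, in DESeq2 with the block, to 0.68. The blocked call was lost without mouse 58 (adjusted p = 0.0932, edgeR), mouse 67 (0.385) or mouse 70 (0.126) and held without mouse 57 (0.00918).

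Fcgr3, which encodes the low-affinity receptor CD16, measured 1.05, 2.61, 5.28 and 15.9 CPM in the 4 E-cadHI libraries and 7.80, 4.89, 43.2 and 55.1 CPM in the E-cadLO libraries of the same mice in the same order. The E-cadLO value was the larger in each mouse, but the groups overlapped, since the E-cadHI library of mouse 70 lay above the E-cadLO libraries of mice 57 and 58. Its log2 fold change was 2.17 (SE 0.96, adjusted p = 0.356 in edgeR) and 2.16 (SE 0.40, adjusted p = 0.0684) with the block, neither past the threshold of 0.05.

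Fcgr4 was the scarcest Fc receptor in counts, with 0, 6, 5 and 23 counts in E-cadHI and 0, 7, 59 and 41 counts in E-cadLO libraries. Both libraries of mouse 57 held none, which allows up to 0.209 CPM in E-cadHI and 0.223 CPM in E-cadLO cells. Its log2 fold change of 1.44 (SE 1.35, adjusted p = 0.604 in edgeR) was not past the threshold in any of the 10 alternatives that tested it, where the adjusted p ran from 0.362 to 0.703.

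The inhibitory receptor gene Fcgr2b measured 0.0697, 0.999, 1.34 and 9.48 CPM in E-cadHI and 1.41, 0.698, 15.9 and 22.6 CPM in E-cadLO cells. It was higher in the E-cadLO library of 3 mice and lower in that of mouse 58, where only 13 and 6 counts stood behind the values. In the fit without a block its log2 fold change was 1.78 (SE 1.33, adjusted p = 0.525 in edgeR). With the block it was 1.97 (SE 0.76, adjusted p = 0.221 in edgeR), also not past the threshold. DESeq2 with the block called it higher (adjusted p = 0.0433), beside 6.72% of all genes. The share of Fcgr2b in the summed Fcgr2b and Fcgr3 counts ran from 6.25% (95% Wilson interval 1.11 to 28.3%, 16 counts) to 37.4% (32.0 to 43.1%) in E-cadHI libraries. In E-cadLO libraries it ran from 12.5% (5.86 to 24.7%) to 29.1% (26.5 to 31.9%), within the E-cadHI range. The intervals cover counting error only.

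The signalling chain gene Fcer1g measured 0.0697, 2.46, 5.43 and 18.6 CPM in E-cadHI and 2.97, 9.31, 31.9 and 58.2 CPM in E-cadLO libraries. With 0.5 CPM added to both values, its within-mouse log2 ratios of 2.61, 1.73, 2.45 and 1.62 were among the most even of the members. This evenness depends on the 0.5 CPM added, since mouse 57 had 1 count in E-cadHI against 40 in E-cadLO cells. The levels of Fcer1g within a population were far apart between mice 57 and 70. Fitted over all libraries, the log2 fold change was 1.95 (SE 1.20, adjusted p = 0.460 in edgeR) and 2.38 (SE 0.44, adjusted p = 0.0689) with the mouse as a block. The level of this chain and that of the receptors it carries thus differed in the same direction in each mouse, apart from Fcgr4 in mouse 57, which had no counts.

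**Figure D1:**
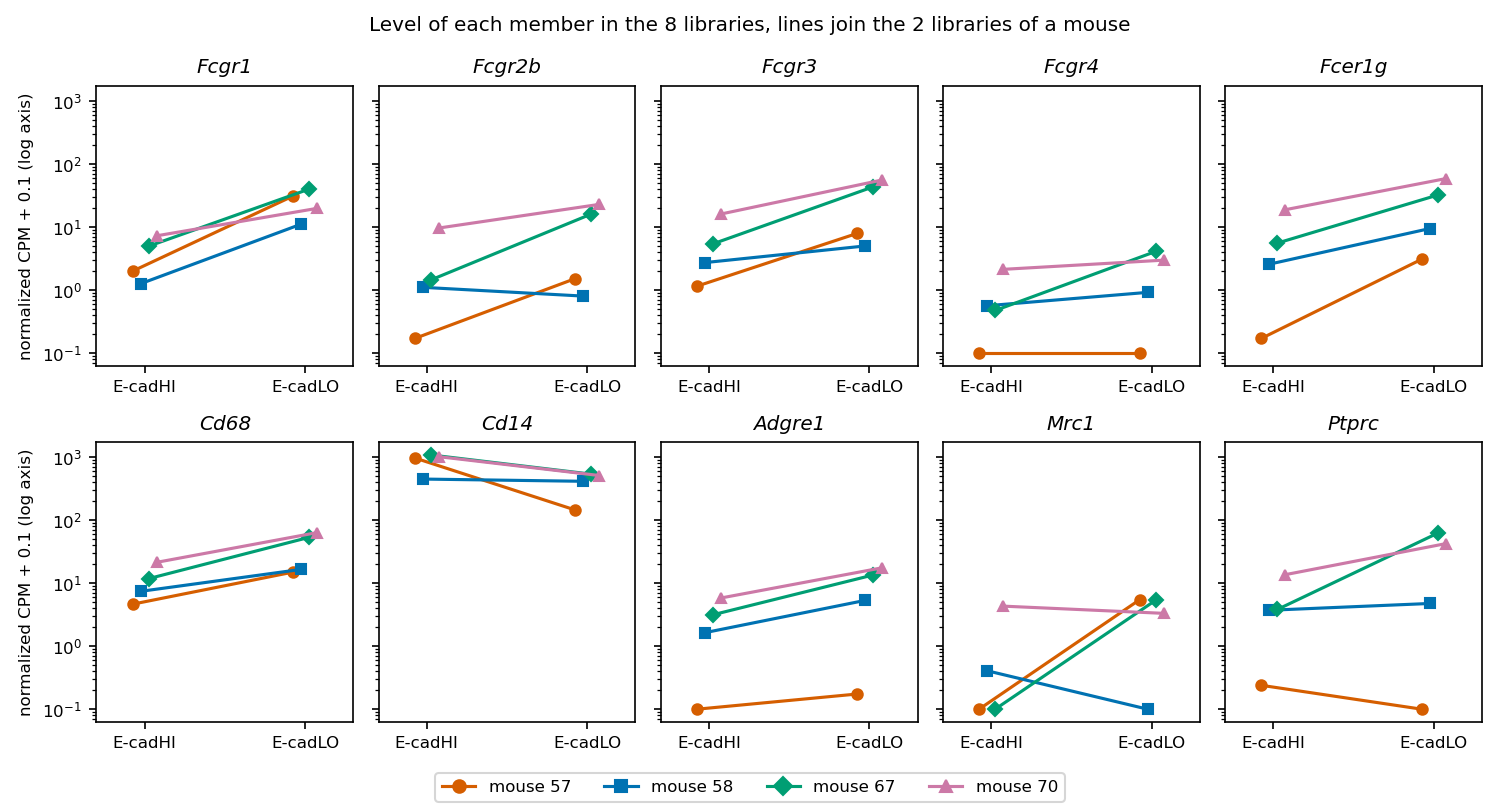
Normalized CPM plus 0.1 (log axis) of each of the 10 members in E-cadHI and E-cadLO libraries, with a line joining the 2 libraries of a mouse (n = 4 mice). The lines of Fcgr1, Fcgr3, Fcer1g, Cd68 and Adgre1 go up in all 4 mice, those of Cd14 go down in all 4, and mouse 70 has the highest E-cadHI value of 9 members, all but Cd14.

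Cd68, which encodes a lysosomal scavenger receptor of macrophages, measured 4.53, 7.30, 11.7 and 21.3 CPM in E-cadHI and 14.9, 16.4, 53.1 and 63.3 CPM in E-cadLO cells. It was higher in the E-cadLO library of every mouse, and only the E-cadHI library of mouse 70 reached above the lower E-cadLO values. The log2 fold change was 1.73 (SE 0.61, adjusted p = 0.303 in edgeR) and 1.66 (SE 0.24, adjusted p = 0.0330) with the block, which is a call. Over all alternatives the adjusted p ran from 1.02e-07 to 0.68, and the blocked call was lost without mouse 58 (adjusted p = 0.0508, edgeR), mouse 67 (0.310) or mouse 70 (0.190).

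Adgre1 measured 0, 1.54, 3.05 and 5.71 CPM in E-cadHI and 0.0743, 5.23, 13.4 and 17.3 CPM in E-cadLO libraries, that is 0 and 1 count in mouse 57. The E-cadLO value exceeded the E-cadHI value in all 4 mice, in mouse 57 by a single count. For Adgre1 the log2 fold change was 1.81 (SE 1.34, adjusted p = 0.524 in edgeR) and 1.86 (SE 0.43, adjusted p = 0.109) with the block. Without mouse 57, the blocked edgeR fit called Adgre1 together with Fcgr1, Fcgr3, Fcer1g and Cd68.

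Ptprc, the gene of the pan-leukocyte phosphatase, measured 0.139, 3.61, 3.72 and 13.5 CPM in E-cadHI and 0, 4.65, 62.1 and 42.2 CPM in E-cadLO cells. Mice 67 and 70 showed clearly larger E-cadLO values, mouse 58 nearly equal ones, and mouse 57 had 2 counts against 0. The log2 fold change was 2.38 (SE 1.49, adjusted p = 0.465 in edgeR) and 1.81 (SE 0.75, adjusted p = 0.245) with the block. It rested largely on mouse 67, without which it was 1.41, or 0.71 with the block, and it was 1.22 in DESeq2 with the block. The gene overlaps A130071D04Rik.

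Mrc1, which encodes the mannose receptor CD206, was split among the mice. It measured 0, 0.307, 0 and 4.21 CPM in E-cadHI and 5.35, 0, 5.25 and 3.21 CPM in E-cadLO libraries, so that it was higher in the E-cadLO library of mice 57 and 67 and lower in that of mice 58 and 70. Its log2 fold change of 1.63 had a standard error of 1.60 and an adjusted p of 0.623 in edgeR, and was 0.92 without mouse 57 and 0.98 without mouse 67. It overlaps the microRNA gene Mir511.

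Cd14 ran against the other 9 members. It measured 966, 447, 1078 and 1013 CPM in E-cadHI and 144, 412, 535 and 509 CPM in E-cadLO libraries, so it was lower in the E-cadLO library of all 4 mice, least in mouse 58 and most in mouse 57. The groups overlapped only through the E-cadHI library of mouse 58. The log2 fold change was -1.13 (SE 0.42, adjusted p = 0.308 in edgeR) and -1.20 (SE 0.40, adjusted p = 0.187) with the block. DESeq2 with the mouse as a block called it lower (adjusted p = 0.0166), and over all alternatives the adjusted p ran from that value to 0.68.

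Over the 10 members, edgeR without the block called 0 higher and 0 lower in E-cadLO cells, and it called 0.0% of the 13598 genes in either direction. At an unadjusted p under 0.05, 3 members were higher (Fcgr1, Cd68 and Fcgr3), beside 8.16% of all genes, and 1 was lower (Cd14), beside 5.81%. With the mouse as a block, 2 members were called higher, Fcgr1 and Cd68, beside 0.728% of all genes, and none lower. At an unadjusted p under 0.05 this fit had 7 members higher, beside 12.3% of all genes, and 1 lower, beside 7.33%. Without a block, DESeq2 called 1 member, Fcgr1, higher, beside 2.47% of 15211 genes, and none lower, beside 0.263%. With the block it called 6 higher (Fcgr1, Fcgr2b, Fcgr3, Fcer1g, Cd68 and Adgre1), beside 6.72% of 14975 genes, and Cd14 lower, beside 1.34%.

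**Figure D2:**
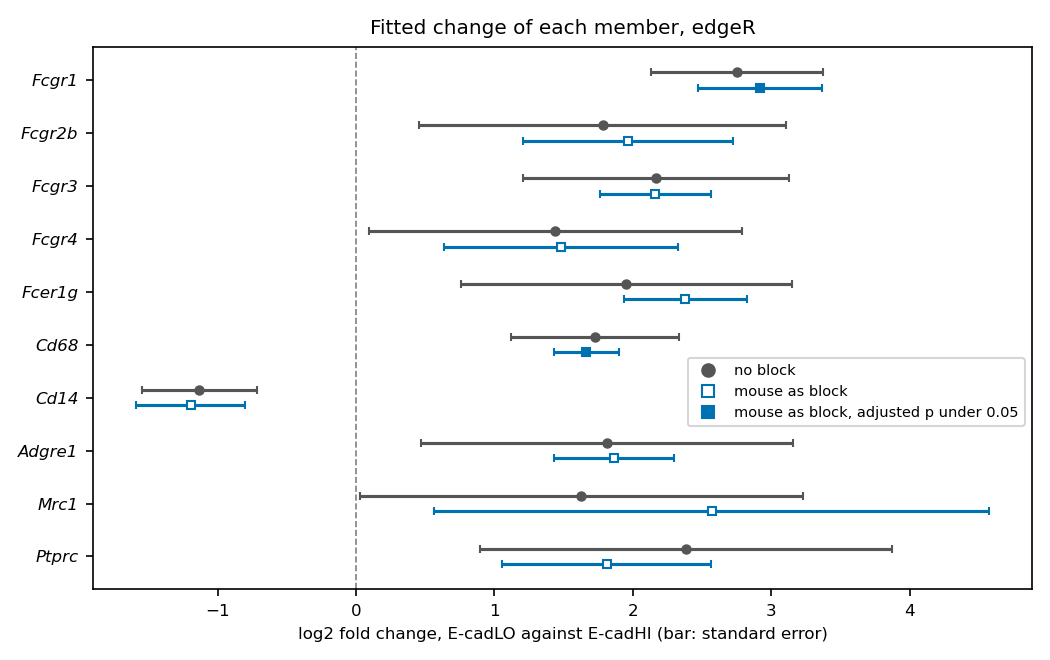
Log2 fold change of E-cadLO against E-cadHI for each member from edgeR without a block (grey circles) and with the mouse as a block (blue squares, filled where the adjusted p is under 0.05), with standard errors as bars. The bar of Fcer1g shortens from 1.20 without the block to 0.44 with it and that of Cd68 from 0.61 to 0.24, while that of Mrc1 stays wide and its estimate moves from 1.63 to 2.57.

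Within mice, 5 members (Fcgr1, Fcgr3, Fcer1g, Cd68 and Adgre1) had a log2 ratio above 0 in 4 of 4 mice, as 16.8% of all genes tested did, and Cd14 had one below 0 in 4 of 4, as 14.2% did. The median ratio of the 10 members was 1.68, 0.62, 2.68 and 1.46 in mice 57, 58, 67 and 70, and that of the 9 members without Cd14 was 1.75, 0.79, 2.91 and 1.52. Over all genes tested the medians ran from 0.00048 to 0.066. The spread over mice differed among the members, with an SD of 0.42 for Cd68 and 0.50 for Fcer1g, but 1.87 for Ptprc and 2.35 for Mrc1. The SDs of Fcer1g, Ptprc and Mrc1 depend on the 0.5 CPM added, since each had a library with almost no counts.

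**Figure D3:**
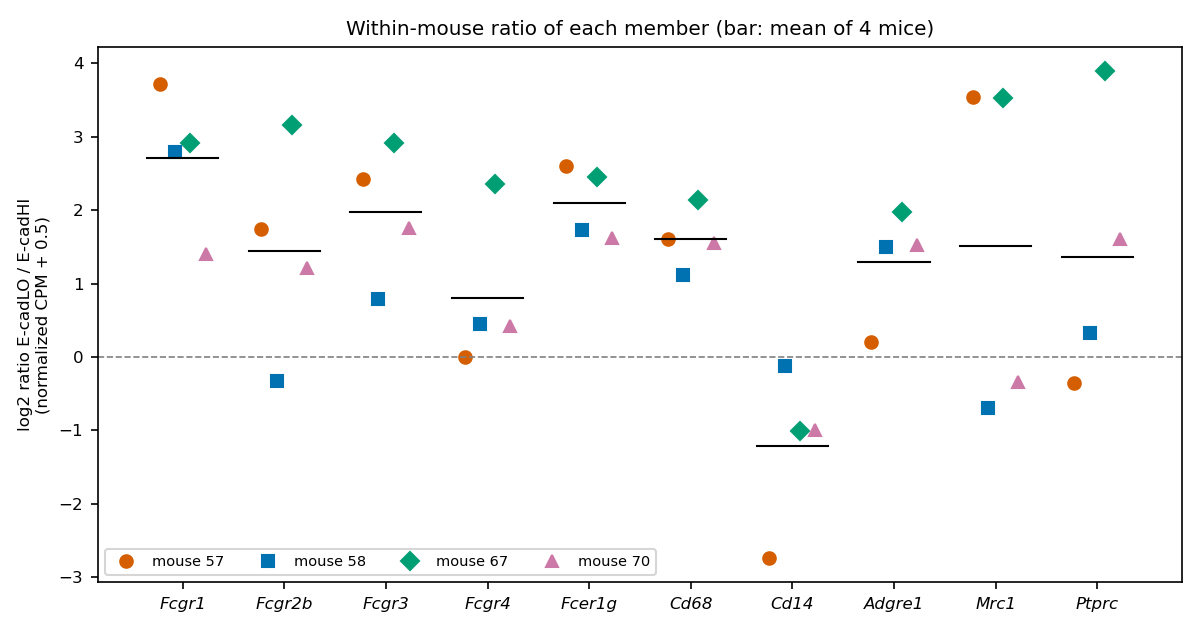
Log2 ratio of E-cadLO to E-cadHI in each mouse, from normalized CPM plus 0.5, for each member, with a black bar at the mean of the 4 mice. Fcgr1, Fcgr3, Fcer1g, Cd68 and Adgre1 lie above the dashed line at 0 in every mouse and Cd14 below it, whereas Mrc1 ranges from -0.69 to 3.55 and Ptprc from -0.35 to 3.89.

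Cd14 made up most of the summed level of the 10 members, which was 974.2, 467.4, 1114 and 1111 CPM in E-cadHI and 207.5, 464.9, 803.4 and 793.1 CPM in E-cadLO libraries, lower in all 4 mice. Cd14 was therefore kept apart. Summed over the other 9 members, the level was 7.74, 20.4, 35.7 and 97.8 CPM in E-cadHI and 63.2, 52.9, 268.5 and 284.4 CPM in E-cadLO libraries. The order of the mice was nearly the same in both populations, with mice 67 and 70 above mice 57 and 58. The E-cadHI library of mouse 70 carried a larger sum than the E-cadLO libraries of mice 57 and 58.

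Per kilobase of exon, the order of the mean levels was Cd14, Cd68, Fcer1g, Fcgr3, Fcgr1, Adgre1, Fcgr2b, Fcgr4, Ptprc and Mrc1 in E-cadLO cells, and the same in E-cadHI cells except that Fcgr4 came before Fcgr2b. The length used is that of all annotated exons of a gene together, 18313 bases for Ptprc and 5790 for Fcgr2b. It can exceed the length of a single transcript, so the order depends on the annotation. Cd14 stood far above the rest, at 505.9 ± 167.3 CPM per kb in E-cadHI and 230.9 ± 103 in E-cadLO cells (SD, n = 4). In E-cadLO cells Cd68 (29.4 ± 19.8 CPM per kb) and Fcer1g (29.3 ± 28.7) were at the same level, followed by Fcgr3 at 15.98 ± 14.5 and Fcgr1 at 9.74 ± 4.86. Adgre1 (2.78 ± 2.41), Fcgr2b (1.76 ± 1.88), Fcgr4 (1.52 ± 1.45), Ptprc (1.49 ± 1.64) and Mrc1 (0.54 ± 0.39) came last. Apart from the steps below Cd14 and from Fcgr1 to Adgre1, neighbours in this order in E-cadLO cells differed by less than the larger of their SDs.

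Next, each member was set against Ptprc in the same library, to ask whether it moved more or less than the pan-leukocyte gene. In an exact two-sided permutation test of the log2 ratios, 4 against 4 libraries, 0 of 9 ratios differed, with the smallest p at 0.2 for Cd14 (difference -2.58, adjusted p = 1 over the 9 tests), where the design allows no p below 0.0286. After adjustment a single ratio at that floor of the exact test would have p = 0.257, so the test could not call any 1 ratio alone and says nothing on whether the ratios are equal. Within mice, the ratio of Cd14 to Ptprc was lower in the E-cadLO library of 4 of 4. With Fcer1g in place of Ptprc, every E-cadLO library had a lower Cd14 ratio than every E-cadHI library (log2 ratios of 3.12 to 5.395 and 5.73 to 10.7, difference -3.32, exact two-sided permutation p = 0.0286, adjusted p = 0.257). The E-cadLO library of mouse 57 held 414 Fcgr1, 105 Fcgr3 and 200 Cd68 counts beside 0 counts of Ptprc, which allows up to 0.223 CPM, 1 of Adgre1 and 0 of Fcgr4. Its ratios to Ptprc therefore rest on the 0.5 CPM added.

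This library is also the one with 1035 CPM of fibroblast markers, and it held 100.6 CPM of the integrin gene Itgax, which encodes CD11c, against 19.7 to 24.3 CPM in the other E-cadLO libraries. The part of either in its Fcgr1 level was not tested. Without mouse 57, the blocked edgeR fit called 5 members higher, beside 3.06% of 13905 genes, and none lower, beside 0.173%, and without mouse 58, 67 or 70 it called none.

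The profiles of the members over the 8 libraries were alike to unequal degrees. Pearson's r of log2 values between a member and the mean of the other 9 was 0.968 for Fcgr3, 0.964 for Cd68, 0.959 for Fcgr2b and Fcer1g, and 0.941 for Fcgr4. It was 0.884 for Ptprc and 0.874 for Adgre1, lower for Fcgr1 (0.612) and Mrc1 (0.609), and -0.028 for Cd14. These are descriptions over 8 libraries that share mice, sorts and normalization.

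Across all genes tested, the profile most like the mean of the 10 members was that of Tyrobp (r = 0.992), whose product DAP12 is the partner chain of many myeloid receptors. It measured 0.488, 2.92, 4.91 and 21.9 CPM in E-cadHI and 3.64, 9.65, 52.9 and 57.4 CPM in E-cadLO libraries. Pycard, the inflammasome adaptor ASC, came next (0.989), then Lilrb4a, an inhibitory myeloid receptor (0.986), Ly86 (0.985) and Ms4a4a (0.984).

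Of the 7 other genes of the chromosome 1 stretch that holds 4 members, 4 were tested (Cfap126, Sdhc, Pcp4l1 and Tomm40l). Their log2 fold changes ran from -0.54 to 1.65 with a median of -0.23, and none was called with the block in edgeR. The members of this stretch ran from 1.44 (Fcgr4) to 2.17 (Fcgr3).

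Of 20 genes that signal downstream of Fc receptors, 17 were tested, 13 of them in the direction of E-cadLO. Their median log2 fold change was 1.41, beside 0.065 over all genes. No gene of this list was called by edgeR in either fit or by DESeq2 without the block, while DESeq2 with the block called 6 higher. At an unadjusted p under 0.05, edgeR had 3 of them higher and 1 lower without the block and 8 higher and 1 lower with it. Over all genes, the shares at this level were 8.16% and 12.3% higher and 5.81% and 7.33% lower, and DESeq2 with the block called 6.72% higher. The 5 most abundant genes of the list were split. Prkcd measured 81.8 ± 4.89 CPM in E-cadHI and 80.5 ± 34.2 CPM in E-cadLO cells and Lyn, a kinase that phosphorylates the receptor motif, 41.0 ± 4.92 and 35.7 ± 7.66 CPM (SD, n = 4). Ptpn6, a phosphatase of inhibitory receptors, was higher in the E-cadLO library of 1 mouse and Plcg2, a phospholipase, in none (46.6 ± 16.1 and 28.6 ± 3.63 CPM), while the adaptor gene Gab2 was higher in 4 of 4 (14.4 ± 3.59 and 25.3 ± 6.47 CPM). The sixth, Tyrobp, measured 7.57 ± 9.76 and 30.9 ± 28.2 CPM, with a blocked log2 fold change of 2.30 (SE 0.40, adjusted p = 0.0547 in edgeR).

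Of 12 other Fc receptor genes, 4 were tested, with a median log2 fold change of 1.43. None was called by edgeR. At an unadjusted p under 0.05 it had 0 higher and 1 lower without the block, beside 8.16% and 5.81% of all genes. With the block it had 2 higher and 0 lower, beside 12.3% and 7.33%. Without the block DESeq2 called none, and DESeq2 with the block called 2 higher, beside 6.72% of all genes. Fcgrt, the neonatal Fc receptor that recycles antibody, measured 6.25 ± 6.92 CPM in E-cadHI and 19.5 ± 17.4 CPM in E-cadLO cells, and Fcrls, a microglial Fc receptor-like gene, 1.88 ± 2.97 and 8.0 ± 5.65 CPM. Pigr, which carries polymeric antibody across epithelia, was the exception, at 159.5 ± 63.0 and 86.9 ± 34.9 CPM, higher in the E-cadLO library of 0 of 4 mice. Fcer1a, Fcrl5 and Fcamr had at most 3 counts in each library.

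Cd14 acts with the lipopolysaccharide recognition genes, of which 8 of 10 were tested. None was called in either direction by edgeR or DESeq2, with or without the block, and the median log2 fold change was -0.23. At an unadjusted p under 0.05, edgeR had 0 higher in both fits, beside 8.16% of all genes without the block and 12.3% with it. It had 1 lower without the block, beside 5.81%, and 2 lower with it, beside 7.33%. Lbp, the lipopolysaccharide binding protein that hands its ligand to Cd14, measured 241.5 ± 19.1 CPM in E-cadHI and 145.7 ± 65.8 CPM in E-cadLO cells, lower in 3 of 4 mice, and Tlr4, the signalling receptor, 37.3 ± 2.95 and 31.8 ± 10.2 CPM.

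Of 12 other scavenger and lectin receptor genes, 8 were tested, 7 of them in the direction of E-cadLO, with a median log2 fold change of 1.19. None was called by edgeR. At an unadjusted p under 0.05 edgeR had 1 higher without the block, beside 8.16% of all genes, and 4 with it, beside 12.3%. DESeq2 called 1 higher without the block, beside 2.47% of all genes, and 3 with it, beside 6.72%. The most abundant of them, Cd163, a receptor for haemoglobin, measured 22.4 ± 2.68 CPM in E-cadHI and 15.96 ± 5.22 CPM in E-cadLO cells, higher in the E-cadLO library of 0 of 4 mice. Mertk, a receptor for the uptake of dying cells, measured 1.99 ± 1.65 CPM in E-cadHI and 10.6 ± 5.51 CPM in E-cadLO cells, and Msr1 3.07 ± 3.74 and 12.4 ± 15.5 CPM. Of 12 myeloid growth factor receptor and transcription factor genes, all were tested, with a median of 1.38. At an unadjusted p under 0.05 edgeR had 4 of these higher without the block, beside 8.16% of all genes, and 5 with it, beside 12.3%. Irf8, a transcription factor of myeloid cells, was called with the block (log2 fold change 2.38, SE 0.37, adjusted p = 0.0392 in edgeR), but no gene of the 5 pathway lists was called so without mouse 58, 67 or 70. Csf1r, the receptor for macrophage colony-stimulating factor, measured 9.89 ± 7.14 and 33.9 ± 23.6 CPM, with an adjusted p of 0.0690 in the blocked edgeR fit.

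Markers of other cell types moved beside the members. The 10 microglia markers were all tested, and all had a positive log2 fold change, with a median of 2.20. Of these, P2ry12 and Cx3cr1 were called higher with the block in edgeR, a fit that called 0 genes of any kind without mouse 67 and 2 without mouse 70. Their sum ran from 59.4 to 134.5 CPM in E-cadHI and from 138.3 to 436.9 CPM in E-cadLO libraries, highest in mouse 70 in both populations. The border-associated macrophage list summed to 127.7 to 284.6 and 80.2 to 152.5 CPM, mostly Cbr2, which was lower in E-cadLO cells on average (196.8 ± 64.0 and 74.8 ± 29.9 CPM). Of its 6 tested genes, 4 had a positive log2 fold change, with a median of 1.49, and Ms4a7 was higher in 4 of 4 mice (5.31 ± 5.93 and 18.1 ± 18.9 CPM). DESeq2 with the block called 2 of the list higher and 1 lower, beside 6.72% and 1.34% of all genes. Lyve1, also of this list, had at most 3 counts in each library. Monocyte markers summed to 2.44 to 24.5 and 16.9 to 53.9 CPM. Dendritic cell markers summed to 6.97 to 15.98 and 31.6 to 123.3 CPM, with Itgax called higher in the blocked fit. Itgax made up much of the E-cadLO sums, 100.6 of 123.3 CPM in mouse 57. The 4 tested genes of this list had a median log2 fold change of 0.57. Zbtb46 was higher in the E-cadLO library of 1 mouse and Ccr7 in that of 2 mice.

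Of the neutrophil list, which sums to 12850 to 19370 and 2632 to 12600 CPM through Ltf, Retnlg and Camp had at most 3 counts in each library. Of the mast cell list Mcpt4, Cma1 and Fcer1a, and of the B cell list Cd79a, Ms4a1, Pax5 and Blk, likewise had at most 3 counts in each library. B cell markers summed to 0.558 to 5.88 and 2.90 to 29.4 CPM, with Ighm called higher in the blocked fit. The sums were 11.97 to 17.4 and 12.2 to 37.1 CPM for T cell and 0.139 to 2.99 and 0.698 to 28.3 CPM for NK cell markers, with 1 gene of each list tested, and 56.8 to 129.2 and 25.6 to 130.4 CPM for the mast cell list, mostly Kit.

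Markers of brain cells were also present. Oligodendrocyte markers summed to 553.6 to 8566 CPM in E-cadHI and 1312 to 34320 CPM in E-cadLO libraries, both highest in mouse 70, and Mbp and Mobp were called higher with the block. Of the 6 markers, 5 had a positive log2 fold change. The exception, Cnp, measured 335.3 ± 49.5 CPM in E-cadHI and 317.1 ± 263.7 CPM in E-cadLO cells and was higher in the E-cadLO library of 1 mouse. Astrocyte markers summed to 1133 to 3383 and 716.8 to 9379 CPM, with Gfap and Slc1a3 called, and in mouse 57 their sum was lower in E-cadLO cells (1143 against 716.8 CPM). Neuron markers summed to 4.39 to 68.5 and 31.2 to 263.3 CPM, with Snap25 called, and endothelial markers to 42.0 to 75.6 and 45.0 to 97.8 CPM. The part of microglia, other leukocytes or brain tissue in the values of the Fc receptor and macrophage genes was not tested.

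**Figure D4:**
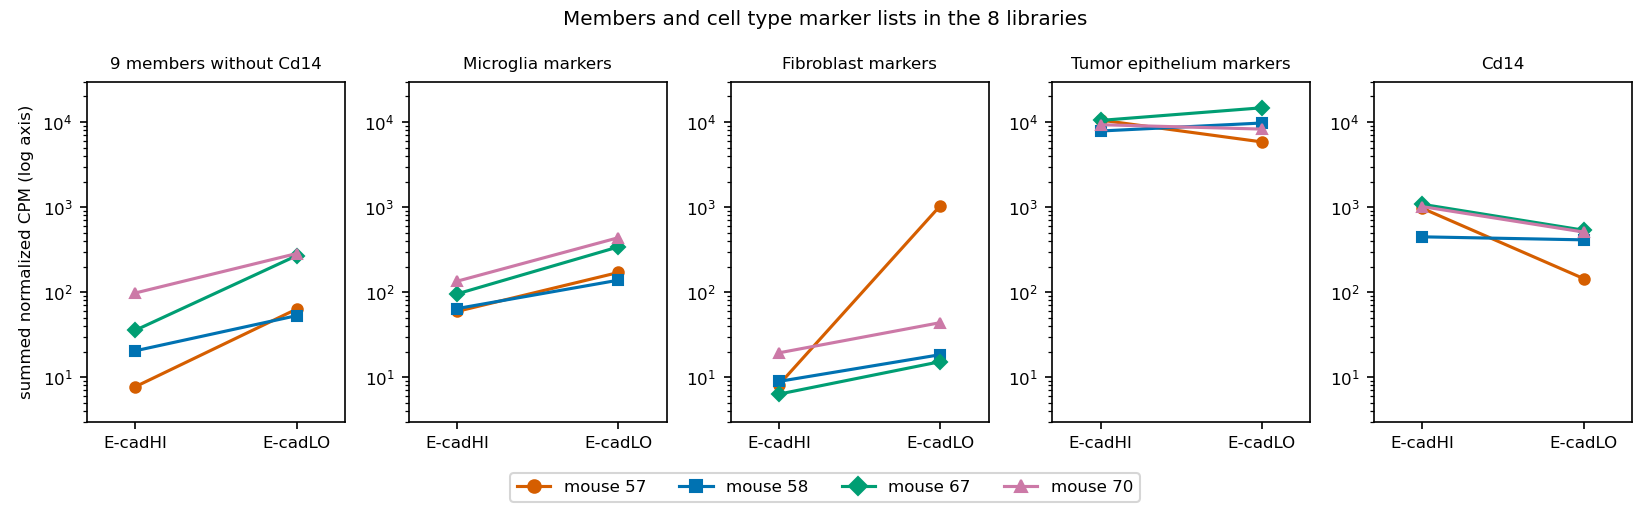
Summed normalized CPM (log axis) of the 9 members without Cd14, of the microglia, fibroblast and tumor epithelium markers, and of Cd14 alone, in E-cadHI and E-cadLO libraries, with a line joining the 2 libraries of a mouse. The 9 members and the microglia markers go up in all 4 mice, the fibroblast sum of mouse 57 reaches 1035 CPM in E-cadLO cells, and Cd14 goes down in all 4.

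Tumor epithelium markers summed to 7852 to 10550 CPM in E-cadHI and 5842 to 14720 CPM in E-cadLO libraries, with none of the 12 genes called by edgeR or DESeq2. At an unadjusted p under 0.05, edgeR had 0 in either direction without the block, beside 8.16% of all genes higher and 5.81% lower. With the block it had 0 higher and 1 lower, beside 12.3% and 7.33%. The epithelial sum exceeded that of the oligodendrocyte markers in 7 of 8 libraries, the exception being the E-cadLO library of mouse 70 (8269 against 34320 CPM). Epcam, an epithelial adhesion molecule, measured 1344, 1134, 1291 and 1311 CPM in E-cadHI and 290, 1101, 827 and 792 CPM in E-cadLO cells. Like Cd14, Epcam was least changed in mouse 58 and most in mouse 57.

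Since Cd14 exceeded Ptprc by a log2 ratio of 6.18 to 10.6 in E-cadHI libraries, it was also set against the epithelial sum, a comparison chosen after its values were seen. The log2 ratio of Cd14 to this sum was -3.45, -4.14, -3.28 and -3.20 in E-cadHI and -5.34, -4.57, -4.78 and -4.02 in E-cadLO libraries. It was lower in the E-cadLO library of every mouse, and the ranges overlapped only through mouse 58 in E-cadHI and mouse 70 in E-cadLO cells. The genes whose profile was most like that of Cd14 over the 8 libraries were Trf (r = 0.992), which encodes transferrin, Wdr55 (0.989), Urah (0.987), Nit2 (0.986) and Tmem261 (0.985), also named after the values were seen. Trf measured 579, 345, 621 and 554 CPM in E-cadHI and 107, 256, 353 and 336 CPM in E-cadLO cells. None of these 5 genes is among the 5 nearest to the mean of the members.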

How the data were processed

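Bulk mRNA was sequenced in 8 libraries (TruSeq, 65-base single reads), 1 of E-cadHI and 1 of E-cadLO cells per BCBM in 4 mice. The authors mapped reads with HISAT2 2.1.0 to GRCm38 and deposited whole-number read counts per gene without normalization. The counter is Icount in the study's methods and HTSeq in the submitters' processing notes, and the use of strand is not given in the sources used here. The 365 of 32259 entries without a gene identifier (0.0636 to 0.0954% of counts) were left out. No per-sample column was left unused (0).

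From these counts, edgeR 4.0.16 in R 4.3.3 was run on all 8 libraries (TMM, filterByExpr by group, quasi-likelihood test, Benjamini-Hochberg over 13598 genes, threshold 0.05), without a block, since the study states none. It was checked on simulated counts. The standard errors given for edgeR were derived from its test, as the absolute log2 fold change divided by the square root of the F statistic. Alternatives were the mouse as a block, DESeq2 1.42.0 with and without it, median-of-ratios factors, other count filters, a robust fit and leaving out each mouse. The mouse number pairs libraries of 1 animal: deviations from the group means correlated at 0.275 to 0.698 in the 4 same-mouse pairs and at -0.516 to 0.153 in the 12 others. No library repeated another (chi-square per degree of freedom at least 27.7).

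Ratios within a library or mouse used CPM plus 0.5. Ratios to Ptprc were compared by exact permutation test (scipy 1.17.1). Read windows, coding runs and gene overlaps were taken from GENCODE M21, promoters from RefSeq. Named genes are the 10 members, the 6 most abundant tested genes of each pathway list and 3 of each marker list, of which the text gives a part, genes called in a fit, and the 5 genes of nearest profile. The members and lists were chosen with earlier results of these data known.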

Additional observations from a re-analysis of the deposited data

Results flagged for a closer look

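In groups of 4 libraries, 30 sets of values were examined for 1 library far from the other 3, of which chance gives about 1 in 20, or 1.5, and 2 were found. Both lie in the E-cadHI library of mouse 70. Fcgr2b measured 9.48 CPM there against 0.0697 to 1.34 CPM in the other E-cadHI libraries, a gap of 0.865 of the range. Mrc1 measured 4.21 CPM there against 0 to 0.307 CPM, a gap of 0.927 of the range. The same library had the highest microglia (134.5 CPM) and oligodendrocyte (8566 CPM) marker sums of the E-cadHI libraries. Their part in the 2 values was not tested.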

How the results depend on the processing

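The 10 members gave 0 calls higher and 0 lower in edgeR without pairing. Under the replicate block by mouse, edgeR called 2 members, 99 of all genes and 1 of the pathway genes higher. DESeq2 called 1, 376 and 3, and DESeq2 with the block 6, 1007 and 16. Calls lower numbered 40 of all genes in DESeq2 and 200, with 1 member, in DESeq2 with the block. For all genes, 23 were called higher with no filter on counts and 3 with at least 10 counts in every library, where 4 members remained to be tested. Leaving out 1 mouse gave 0 calls without the block. With it, members called higher ran from 0 to 5, pathway genes from 0 to 7, all genes higher from 0 to 425 (63 without mouse 58) and all genes lower from 0 to 24, each highest without mouse 57. Median-of-ratios factors and the robust fit left every count at 0. No ratio to Ptprc was called under any pseudocount, with Fcer1g as the reference (where the smallest p, 0.0286 for Cd14, became 0.257 after adjustment), in the paired sign-flip test (which 4 pairs leave unable to reach the threshold) or without any 1 mouse, and the 5 members higher in 4 of 4 mice stayed 5 under median-of-ratios scaling, and a pseudocount cannot change that count. No estimate changed sign where it was called. The cause of the differences between tools was not tested. At this depth, members with under 10 counts in a library (Ptprc, Fcgr2b, Fcer1g, Fcgr4, Adgre1 and Mrc1) are the least precise.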
